A study of Mus musculus and Rattus norvegicus with 37 samples.

Results

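The 10 genes described here are the 7 sirtuins of the mouse (Sirt1 to Sirt7) and 3 enzymes around their cofactor NAD: Nampt, Nmnat1 and Nnmt. They were chosen by name, and each was read from the tables by its gene symbol. Entries whose name was missing or repeated were left out. All 10 had an entry among the 47929 genes kept from the mouse tables, and 9 had one among the 28026 kept from the rat tables. Sirt1 was not analysed in rats here. RNA was sequenced from the livers of 21 mice and 16 rats, all from the fed state. The mice were female C57BL/6J animals. The WT/Floxed group pooled 7 WT mice of 9 to 11 weeks with 6 floxed mice of 15 to 20 weeks. The L-Sirt1 KO-labelled mice, a liver-specific knockout of Sirt1, were littermates of the floxed mice, so WT mice differed from them in age as well as in genotype. One subcutaneous injection of LNA29 or of saline was given, and livers were taken on day 7. LNA29 joins an inhibitor of miR-29a and one of miR-29b/c, both made of locked nucleic acid and each dosed at 20 mg/kg. LNA29 was given to 8 WT/Floxed mice (4 WT and 4 floxed) and saline to 5 (3 WT and 2 floxed), after the authors excluded 1 floxed mouse. Of the L-Sirt1 KO mice, 4 received LNA29 and 4 saline. The rats were males: 4 Zucker Fatty rats (ZFR), which are fa/fa leptin receptor mutants, and 4 Zucker Lean rats (ZLR), all aged 5.5 months, and 8 further ZFR aged 3 months that received BT2 (n = 4) or its vehicle, dimethylsulfoxide (n = 4), intraperitoneally each day for 1 week. BT2, given at 20 mg/kg, inhibits the kinase that restrains the oxidation of branched-chain amino acids. The promoter that drives Cre in the L-Sirt1 KO mice was not given in the sources used here.

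Sirtuins remove acetyl and other acyl groups from proteins, and each reaction splits 1 NAD molecule into nicotinamide and an acyl-ADP-ribose. The liver rebuilds NAD from nicotinamide through NAMPT, the rate-limiting enzyme of this salvage route, and NMNAT1, which makes the dinucleotide in the nucleus. It also makes NAD from tryptophan through the kynurenine pathway, and it methylates surplus nicotinamide with NNMT, at the expense of the methyl donor S-adenosylmethionine. SIRT1, SIRT6 and SIRT7 act mainly in the nucleus, SIRT2 mainly in the cytosol, and SIRT3, SIRT4 and SIRT5 in mitochondria.

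The mature miR-29 sequences are shown because LNA29 is directed at them and because their shared seed decides which of these genes carry a match. They were taken from RefSeq (GRCm38.p6) and run 5′ to 3′, with the seed, bases 2 to 8, in capitals. miR-29b comes from a pair of loci.
mmu-miR-29a-3p (chr6:31062673-31062694, minus strand): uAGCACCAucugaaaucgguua
mmu-miR-29b-3p (Mir29b-1, chr6:31063025-31063047, minus strand, and Mir29b-2, chr1:195037091-195037113, plus strand): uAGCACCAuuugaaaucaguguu
mmu-miR-29c-3p (chr1:195037600-195037621, plus strand): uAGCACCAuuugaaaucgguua

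The match to this seed in a messenger RNA is TGGTGCT. It was searched for on the sense strand of the longest annotated 3′ UTR of each gene. Of the 10 genes, Sirt1 held 1 match and the other 9 held none. The match in Sirt1 began at base 549 of a 3′ UTR of 1631 bases. Col1a1 and Col3a1, collagen genes that served as a check of the LNA29 treatment, held 1 match each. The windows below hold 8 bases on either side, with the match in capitals, so that the 3 sites can be compared.
Sirt1 (GRCm38, chr10:63320073-63320095, minus strand): tcaaaactTGGTGCTcagtgtgt
Col1a1 (chr11:94952530-94952552, plus strand): ggaatttcTGGTGCTatagaagc
Col3a1 (chr1:45348974-45348996, plus strand): tgtctcaaTGGTGCTataataaa
Among the 13473 genes with a 3′ UTR that were tested in WT/Floxed mice, 2071 (15.4%) held the 7 bases, so a match is common. The median log2 difference of these genes between LNA29 and saline was 0.05, against 0 over all tested genes with a 3′ UTR. By the call described below, 160 of the genes with a match were called, 138 of them higher with LNA29. Over all 15811 genes tested, 688 were called, 383 of them higher. A match is a description of letters and does not show that the site is used.

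All values are normalized counts, which the authors made by dividing estimated read counts by scaling factors. The 2 mouse tables, deposited apart, were rescaled together here, which moved a library by a factor between 0.995 and 1.021. Estimated depth was 42.6 to 78 M reads in mice, where 1 read was worth 0.746 to 1.37 normalized counts. In rats it ranged from 0.188 to 58.5 M reads, and 1 read was worth 0.0322 to 10.5. The shallowest rat libraries were ZLR replicates 3 and 4 and ZFR vehicle replicate 4, each with under 0.2 M reads. Hepatocyte markers were present in every library, with group medians of their summed counts between 5719000 and 6662000 in mice and between 213800 and 253900 in rats. Read numbers and the 3-read limits given below cover counting error only. A lower count in whole liver can come from fewer cells of a type or from less RNA per cell, and these cannot be told apart.

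Levels were set per kilobase of exon, with the exons of all annotated transcripts of a gene merged. On this scale Nnmt had the highest level of the 10 genes in mouse liver. Its median was 1823.7 normalized counts per kilobase over 21 mice, with a range of 522.1 to 5303.9. Sirt3, the main mitochondrial deacetylase, was next (median 713.1), followed by Nampt (603.2), Sirt2 (494.0) and Sirt7 (391.1). The ranges of neighbours within these 5 genes overlapped. A gap in range separated Sirt7 from Nmnat1 (median 236.2), and another separated Nmnat1 from Sirt4 (175.3). Sirt1 (108.3) and Sirt5 (89.6) lay close together with overlapping ranges, and Sirt6 had the lowest level (45.2, range 28.8 to 59.5), below every library's value for Sirt5. Exon lengths came from GENCODE M21, which may not be the annotation the authors used. The merged lengths ran from 1576 bases for Nnmt to 6093 bases for Sirt5. A merged length can exceed that of the transcript made in liver, so the order and the gaps depend on the annotation.

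Nnmt also stood apart in its spread between mice. Its highest library exceeded its lowest by a factor of 10.2, with a coefficient of variation of 56.8% over 21 mice. The corresponding factor was between 1.35 (Nmnat1) and 2.07 (Sirt6) for the other 9 genes, and their coefficients of variation were between 6.71% (Sirt2) and 17.7% (Sirt6). So 9 of the 10 genes stayed within a factor of 2.07 over all genotype labels, treatments and mice. In the annotation Sirt2 overlaps Nfkbib, Sirt3 overlaps Psmd13 and Ric8a, and Nmnat1 overlaps Tmem274 on the opposite strand, while Sirt7 overlaps Mafg and Nampt overlaps Gdap10 on the same strand, so part of their counts may belong to the neighbour.

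**Figure D1:**
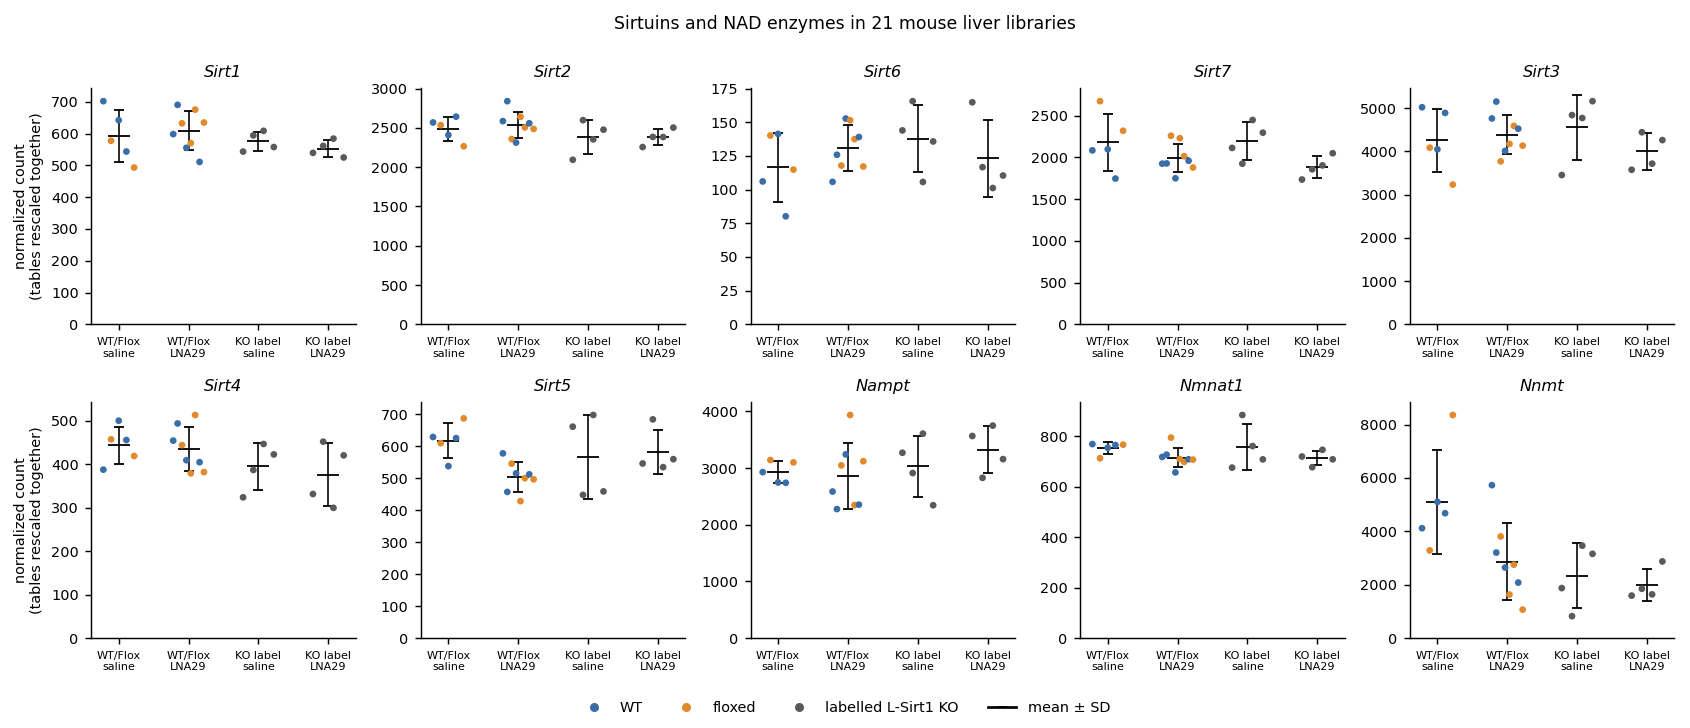
Normalized counts of the 10 genes in 21 mouse livers (vertical axes from 0, both mouse tables rescaled together), by genotype label and treatment on the horizontal axis. Each point is 1 mouse, coloured blue for WT, orange for floxed and grey for labelled L-Sirt1 KO, and bars give the mean ± SD. Sirt1 of the L-Sirt1 KO-labelled mice lies between 524.9 and 608.7, within the WT/Floxed range, and Nnmt has the widest spread.

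The first comparison concerned the genotype label. Sirt1 (chr10:63319005-63381704 of GRCm38, minus strand), the deacetylase gene whose loss defines the label, had 543.5, 594.3, 608.7 and 557.7 normalized counts in the saline-treated L-Sirt1 KO-labelled mice and 539.4, 561.4, 584.2 and 524.9 in the LNA29-treated ones. The 7 WT mice ranged from 510.9 to 702 (median 598.3) and the 6 floxed mice from 493.2 to 675.5 (median 604.8). Every library labelled L-Sirt1 KO therefore lay within the range of both control backgrounds. The means were 564.3 ± 29.1 (SD, n = 8) for the label, 606.1 ± 74.4 (SD, n = 7) for WT and 597.2 ± 64.4 (SD, n = 6) for floxed mice. With treatment in the model, the label differed from WT/Floxed by a log2 difference of -0.09 (95% interval -0.23 to 0.06, limma adjusted p = 0.734). Against the floxed littermates alone it was -0.07 (-0.23 to 0.1, adjusted p = 0.84). A gene-level count does not separate exons, so a transcript that lacks part of Sirt1 would still be counted. It also overlaps Gm16145 on the opposite strand, and the strand setting of the counting was not given in the sources used here. The libraries are called by their label for these reasons.

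None of the other sirtuins passed the test for the label either. At an adjusted p under 0.05, 2.21% of the 15844 genes tested were called between the label and WT/Floxed, and 0 of the 10 genes described here were, with limma adjusted p-values between 0.219 and 0.999 and an unadjusted p under 0.05 for 2 of them. Against floxed mice the background was 0.764% of 15830 genes and again 0 of 10 were called (adjusted p from 0.492 to 0.987, 1 with an unadjusted p under 0.05). The median log2 difference of the 10 genes was -0.03 in both, against 0.01 and 0 over all genes tested. Both comparisons use the same L-Sirt1 KO libraries, and the floxed mice are part of WT/Floxed, so the 2 results are not independent.

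Among the nuclear and cytosolic sirtuins, the interval of the label against WT/Floxed was narrowest for Sirt2, the cytosolic tubulin and histone deacetylase (log2 difference -0.08, -0.18 to 0.02). It was widest for Sirt6, a chromatin deacylase with low counts (0.06, -0.2 to 0.32). Sirt7, the nucleolar member, had -0.03 (-0.18 to 0.11) against WT/Floxed and -0.16 (-0.32 to -0.01, adjusted p = 0.492) against floxed mice. WT mice had a Sirt7 mean of 1926 ± 141 (SD, n = 7) and floxed mice one of 2228 ± 274 (SD, n = 6), so the choice of control moved its difference.

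Of the mitochondrial sirtuins, Sirt4, an ADP-ribosyltransferase and deacylase that restrains glutamate dehydrogenase, had a mean of 385.3 ± 59.5 (SD, n = 8) in L-Sirt1 KO-labelled mice and 438.3 ± 45.7 (SD, n = 13) in WT/Floxed mice. This log2 difference of -0.2 (-0.38 to -0.02) did not pass the call (adjusted p = 0.345, exact permutation p = 0.0276 with labels exchanged within treatments, two-sided). Within flow cells it was -0.39, -0.29 and 0.05. Sirt3 had -0.03 (-0.21 to 0.16) and Sirt5, which removes succinyl, malonyl and glutaryl groups, 0.04 (-0.15 to 0.24).

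Nampt had a log2 difference of 0.14 (-0.06 to 0.35) against WT/Floxed and 0.04 (-0.21 to 0.3) against floxed mice. WT mice alone had a lower Nampt mean, 2698 ± 332 (SD, n = 7), than floxed mice, 3117 ± 504 (SD, n = 6), or L-Sirt1 KO-labelled mice, 3181 ± 472 (SD, n = 8), and these backgrounds differ in age. Nmnat1 was closest to 0 of all, with 0 (-0.11 to 0.11) against WT/Floxed.

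Nnmt had the largest difference by label. Saline-treated L-Sirt1 KO-labelled mice had 1875, 822.8, 3463.8 and 3158.3 normalized counts, and saline-treated WT/Floxed mice had 4118.1, 3285.8, 5106, 4679.5 and 8358.9. Of the saline libraries labelled L-Sirt1 KO, 3 lay below every saline WT/Floxed library and 1 lay within their range. The means over both treatments were 2159 ± 907 (SD, n = 8) for the label and 3729 ± 1940 (SD, n = 13) for WT/Floxed. The log2 difference of -0.8 (-1.4 to -0.19) had an unadjusted limma p of 0.0122, an adjusted p of 0.219 and an exact permutation p of 0.0215 (two-sided), so it was not called. Against the floxed littermates it was -0.61 (-1.43 to 0.22, adjusted p = 0.691). It was not uniform over batches either, with -1.26, -1.16 and 0.05 within the 3 flow cells. By treatment it was -1.26 with saline and -0.41 with LNA29, and against floxed mice -1.37 and -0.1.

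The second comparison was LNA29 against saline in WT/Floxed mice. Following the study, a call here needed p under 0.05 and adjusted p under 0.2 together with a fold over 1.2 and a mean over 50 normalized counts. The collagen genes with a seed match rose, Col1a1 by a log2 difference of 0.87 (adjusted p = 0.123) and Col3a1 by 1.19 (adjusted p = 0.0162) in this check of the treatment. Of the 15811 genes tested, 4.35% were called, and 1 of the 10 genes described here, Sirt5, was among them. The median log2 difference of the 10 genes was -0.04, against 0 over all genes tested.

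Sirt1, the gene of the set with a seed match, had a log2 difference of 0.04 (95% interval -0.17 to 0.26, adjusted p = 0.902) with LNA29. Its LNA29-treated libraries ranged from 510.9 to 690.4 (median 615.3) and its saline-treated ones were at 702, 577.4, 642.2, 543.6 and 493.2, so the groups overlapped almost fully. The upper end of the interval is a fold of 1.2. Within backgrounds the difference was -0.1 in WT mice and 0.23 in floxed mice. The data measure messenger RNA and carry no value for the protein.

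Sirt5 (chr13:43365496-43395203, plus strand) fell with LNA29 in WT/Floxed mice. Its counts were 629.5, 610.1, 538.3, 625.9 and 687.7 with saline and ranged from 428.6 to 578.2 (median 506.6) with LNA29. The groups overlapped, since 2 of the 8 LNA29-treated libraries lay above the lowest saline-treated one. The mean went from 617.2 ± 53.6 (SD, n = 5) to 503.5 ± 46.6 (SD, n = 8) in the deposited table, a log2 difference of -0.29 (SE 0.0881, 95% interval -0.48 to -0.11, limma adjusted p = 0.138, exact permutation p = 0.00389 over 1287 splits, two-sided). It had the same sign within each flow cell (-0.16, -0.24 and -0.38) and in both backgrounds (-0.21 in WT and -0.4 in floxed mice). The flow cells held 3 LNA29-treated mice against 1 saline-treated, 3 against 2 and 2 against 2, so the first value rests on 1 saline library. The call was lost in 8 of the 13 fits that each left out 1 mouse, where the difference stayed between -0.34 and -0.25 and the adjusted p reached 0.249 without saline replicate 1. Its longest 3′ UTR holds no match to the miR-29 seed.

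The other mitochondrial sirtuins were not called. Sirt3 had a log2 difference of 0.06 (-0.17 to 0.28) and Sirt4 of -0.03 (-0.24 to 0.18). Nor were the nuclear and cytosolic members: Sirt2 had 0.03 (-0.11 to 0.17), Sirt6 0.19 (-0.14 to 0.51) and Sirt7 -0.12 (-0.33 to 0.08). For NAD salvage, Nampt had -0.06 (-0.32 to 0.21) and Nmnat1 -0.08 (-0.22 to 0.06). Nmnat1 lay between 656 and 793.8 with LNA29 and between 712 and 768.2 with saline, the tightest of the 10 genes in the saline group (coefficient of variation 3.12%).

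Nnmt (chr9:48591877-48605153, minus strand) had the largest log2 difference of the 10 genes with LNA29, -0.92 (SE 0.331, 95% interval -1.63 to -0.22). It did not pass the adjusted criterion (limma adjusted p = 0.222, unadjusted p = 0.0139, exact permutation p = 0.0342, two-sided). The saline-treated libraries, listed above, had a mean of 5110 ± 1940 (SD, n = 5) and the LNA29-treated ones, from 1067.6 to 5730.9 (median 2698), one of 2866 ± 1450 (SD, n = 8). Of the LNA29-treated libraries 6 of 8 lay below the lowest saline value and 1 lay above all but the highest. Single libraries decided the call: without LNA29 replicate 1, a WT mouse with 5730.9, the difference was -1.09 and was called (adjusted p = 0.0762), and without LNA29 replicate 3 it was -1.01 and was called (adjusted p = 0.19). Without saline replicate 5, the floxed mouse with 8358.9, it was -0.73 (adjusted p = 0.38). Within flow cells it was -1.16, 0.16 and -2.07, the first of these against 1 saline library.

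Dbp, a clock output gene with a steep daily rhythm, separated some of the same libraries. It had 1201 normalized counts in saline replicate 5, the WT/Floxed library with the most Nnmt, and 7353.3 in L-Sirt1 KO saline replicate 3, the library labelled L-Sirt1 KO with the most Nnmt. In the other 19 mice Dbp lay between 31.1 and 471.7. These mice include others with high Nnmt: WT/Floxed LNA29 replicate 1 (5730.9), WT/Floxed saline replicate 3 (5106) and L-Sirt1 KO saline replicate 4 (3158.3). Of the 10 clock genes listed, 0 were called with LNA29 in WT/Floxed mice (Dbp -1.12). None was called in L-Sirt1 KO-labelled mice either (Dbp -3.04, adjusted p = 0.302), although 5 had an unadjusted p under 0.05. Whether time of day has a part in the Nnmt values was not tested.

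In L-Sirt1 KO-labelled mice, 1.87% of 15885 genes were called with LNA29, while 0 of the 10 genes described here were (adjusted p from 0.448 to 0.992, none with an unadjusted p under 0.05). Col1a1 rose by a log2 difference of 1.71 and Col3a1 by 1.74 (adjusted p = 0.00783 for each). The 10 genes had a median log2 difference of -0.08, against 0 over all genes tested. Sirt1 had -0.06 (-0.26 to 0.14) (a fold of 0.959, interval from 0.834). The lowest adjusted p belonged to Sirt7, with -0.22 (-0.43 to 0, adjusted p = 0.448, exact permutation p = 0.0571, two-sided, where 0.0286 is the smallest that 4 against 4 libraries allow).

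Sirt5 in these mice was 661.8, 448.3, 698.3 and 459.2 with saline and 546.6, 684.6, 535.1 and 560.1 with LNA29. The saline libraries fell into a high and a low pair that spanned nearly the whole range of the gene, and 3 of the 4 LNA29 libraries lay between these pairs, with replicate 2 inside the high one. The log2 difference was 0.06 (-0.31 to 0.43, adjusted p = 0.92), an interval that holds the WT/Floxed value of -0.29. Sirt6 had -0.17 (-0.61 to 0.28), Sirt3 -0.18 (-0.48 to 0.12), Sirt4 -0.08 (-0.44 to 0.28) and Sirt2 0 (-0.19 to 0.2).

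Nnmt was 1593.2, 1849.3, 1639.4 and 2874.2 with LNA29 in L-Sirt1 KO-labelled mice, within the range of the saline libraries of that label. Its log2 difference of -0.07 had an interval from -0.99 to 0.85, too wide to set it apart from the value in WT/Floxed mice. Nampt had 0.14 (-0.18 to 0.46) and Nmnat1 -0.08 (-0.32 to 0.16).

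The difference between both LNA29 responses was tested directly as an interaction. At an adjusted p under 0.2, 0.0442% of 15844 genes were called and 0 of the 10 genes were (adjusted p from 0.561 to 0.997, limma). For Sirt5 the response in L-Sirt1 KO-labelled mice minus that in WT/Floxed mice was 0.35 on the log2 scale (-0.01 to 0.72, adjusted p = 0.561). For Nnmt it was 0.85 (-0.33 to 2.04, adjusted p = 0.69), and for Sirt1 -0.1 (-0.4 to 0.19). So the call of Sirt5 in one genotype and its absence in the other does not show that the responses differ.

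**Figure D2:**
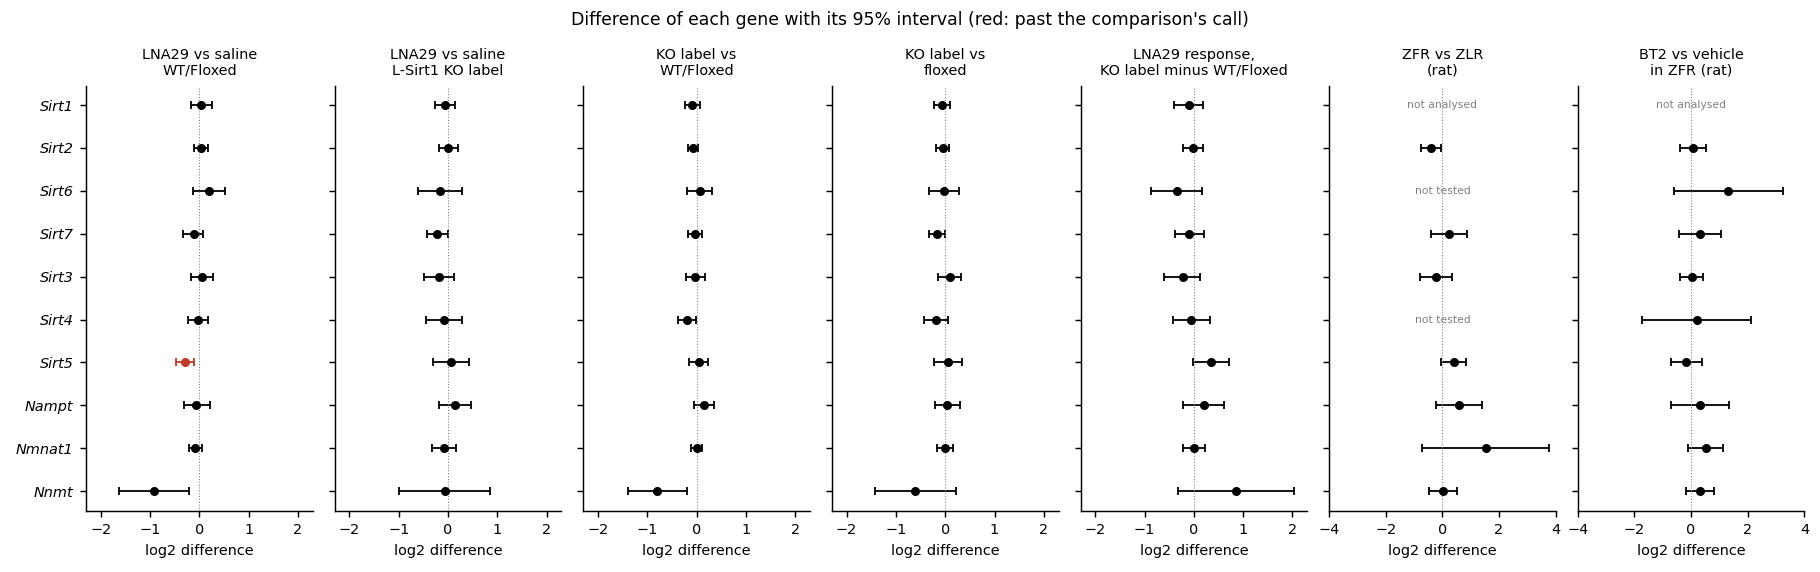
Log2 difference of each gene with its 95% interval (horizontal axis) in the 7 comparisons, with 1 row per gene, and red for a gene past the comparison's call. The mouse panels run from -2.3 to 2.3 and the rat panels from -4 to 4. Sirt5 with LNA29 in WT/Floxed mice (-0.29) is the only red point, and the Nnmt intervals are the widest of the mouse panels.

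The other genes of NAD synthesis were described from a list of 15, of which 13 were tested in mice. Nmrk2 and Ido1 lay below the minimum mean. In WT/Floxed mice 3 of the 13 were called, beside 4.35% of all genes, and 8 had an unadjusted p under 0.05, beside 2105 of all 15811 genes, with a median log2 difference of -0.29 against 0 over all genes. Ido2, which opens the tryptophan ring, had a log2 difference of -0.44 (adjusted p = 0.173). Haao, which forms the precursor of quinolinate, had one of -0.31 (adjusted p = 0.156). Nmrk1, the kinase that takes nicotinamide riboside into NAD, rose by 0.29 (adjusted p = 0.127).

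In normalized counts, Nmrk1 was at 774.6, 788.5, 812.5, 716.9 and 683.8 with saline and between 792.8 and 1085.4 with LNA29, where 1 saline library overlapped. Haao lay between 27054.7 and 32462.3 with saline and between 20319.3 and 30557.9 with LNA29, with 1 LNA29 library, replicate 1, inside the saline range. Leaving out single mice moved these calls across the limit: the adjusted p reached 0.3 for Haao without saline replicate 1, 0.349 for Ido2 without saline replicate 4 and 0.246 for Nmrk1 without saline replicate 4. With flow cell as a term Ido2 was not called (adjusted p = 0.229). In L-Sirt1 KO-labelled mice 0 of the 13 were called, the largest difference was that of Afmid (0.21, adjusted p = 0.591) and the median was 0.04. The interaction called 0 of the 13, with a median of 0.21 and the largest value for Nmnat2, 0.84 (-0.54 to 2.22).

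By genotype label, 2 of the 13 NAD synthesis genes were called, and both were lower in L-Sirt1 KO-labelled mice than in WT/Floxed mice. Tdo2, the liver's main tryptophan dioxygenase and the entry into the kynurenine pathway, had 30237.5, 31450.4, 49753.7 and 30378.8 normalized counts in saline-treated L-Sirt1 KO-labelled mice and 58299.3, 41412.2, 49546, 61520.8 and 55191.2 in saline-treated WT/Floxed mice. All but 1 of these L-Sirt1 KO libraries, the replicate 3 with the most Dbp, lay below every saline WT/Floxed library. Its log2 difference was -0.53 (SE 0.118, 95% interval -0.77 to -0.29, limma adjusted p = 0.0134). Acmsd, which diverts the pathway away from NAD, had 553, 487.6, 620.4 and 341.3 against 973.1, 1074.8, 973.1, 1364.2 and 883.7, with no overlap among saline-treated mice. Over both treatments the groups overlapped, and its log2 difference was -0.75 (SE 0.172, -1.11 to -0.4, adjusted p = 0.0167). Both calls were kept when any 1 of the 21 mice was omitted.

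Against floxed littermates alone neither gene passed. Tdo2 had a log2 difference of -0.4 (-0.7 to -0.1, adjusted p = 0.331) and Acmsd one of -0.48 (-0.88 to -0.09, adjusted p = 0.401), and 0 of the 13 genes were called. The mean of Acmsd was 717.4 ± 224 (SD, n = 6) in floxed and 518.1 ± 114 (SD, n = 8) in L-Sirt1 KO mice. The median over the list was -0.2 against WT/Floxed and -0.13 against floxed mice. WT mice are younger than both other backgrounds, so age and genotype cannot be told apart in the comparison with WT/Floxed. Of the cholangiocyte markers, Krt19 was higher by 0.64 and Sox9 lower by 0.55 with the label, 2 of the 4 listed, and their summed counts were between 587.4 and 1187 in L-Sirt1 KO-labelled mice and between 556.9 and 1006 in WT/Floxed mice. Of the 6 stellate markers Pdgfrb was called (0.26). Their part in these differences was not tested.

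**Figure D3:**
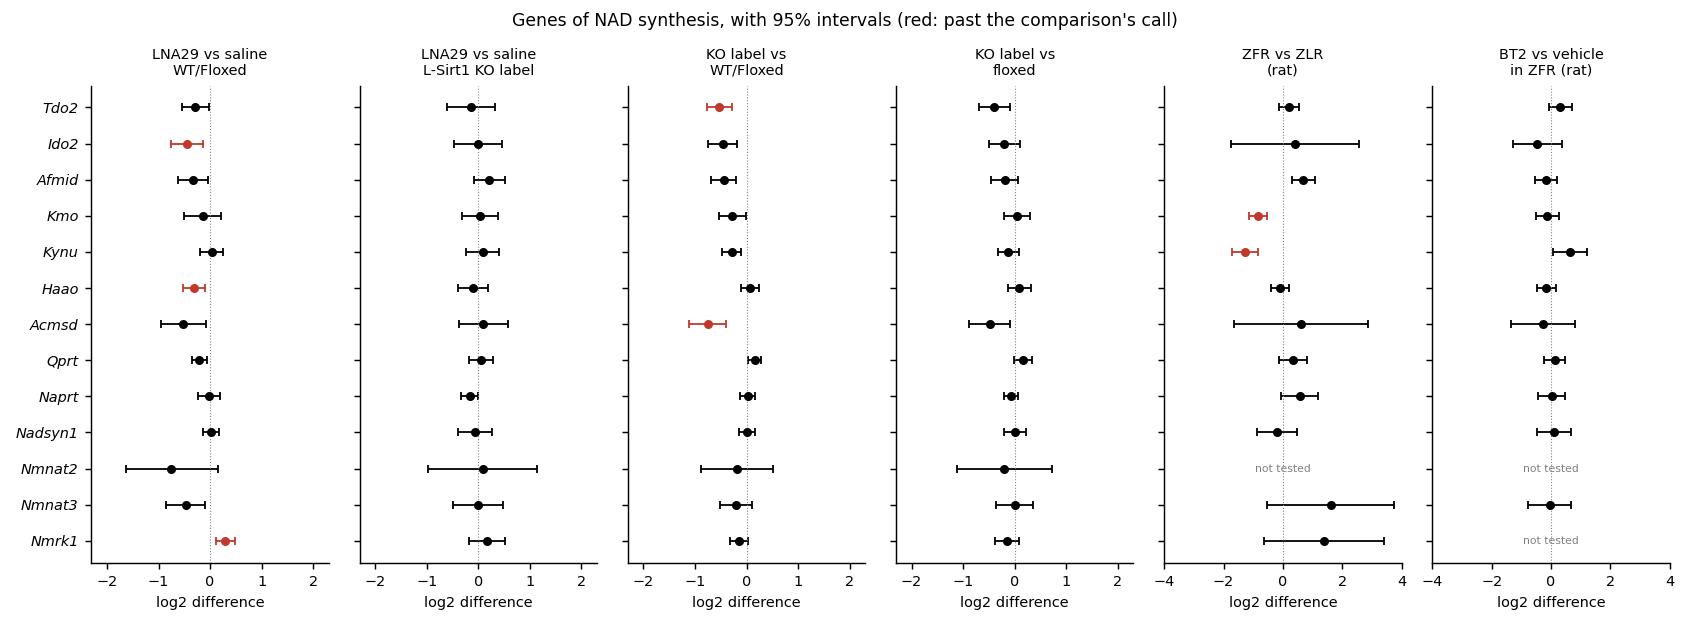
Log2 difference with its 95% interval (horizontal axis) of 13 NAD synthesis genes, 1 row each in pathway order, in 6 comparisons, with red for genes past the call. With LNA29 in WT/Floxed mice 3 genes are red, by genotype label Tdo2 and Acmsd are, and between ZFR and ZLR Kmo and Kynu are. The rat panels have the wider axis, -4 to 4.

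Lists around the 10 genes were described in the same way. Of the 4 genes of NADP formation and NAD transport, 0 were called with LNA29 in WT/Floxed mice; Nnt, the transhydrogenase of the inner mitochondrial membrane, had the largest difference, -0.22 (adjusted p = 0.0862), below the required fold. None of the 13 NAD consumers was called there (largest Sarm1, 0.33). In L-Sirt1 KO-labelled mice 1 of the 13 was: Parp16, an ADP-ribosyltransferase of the endoplasmic reticulum, went from 1151.5, 1032.4, 996.1 and 863.2 with saline to 1882.2, 1708.9, 1567.2 and 1715.1 with LNA29, without overlap (log2 difference 0.77, adjusted p = 0.0239). Its response did not pass the interaction (0.49, adjusted p = 0.419).

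Of 8 genes that supply or use the methyl donor or that oxidize N-methylnicotinamide, the product of NNMT, Gnmt, the liver's glycine methyltransferase, was called in the LNA29-treated WT/Floxed mice (-0.39, adjusted p = 0.159). Mat2a, which makes S-adenosylmethionine, was called in L-Sirt1 KO-labelled mice (-0.4, adjusted p = 0.139, groups without overlap). None of the 11 SIRT1 regulators and substrates was called in any mouse comparison. The largest values with LNA29 were -0.44 for Srebf1 in WT/Floxed mice and 0.21 for Ccar2, an inhibitor of SIRT1, in L-Sirt1 KO-labelled mice. Of the 7 substrates of mitochondrial sirtuins, Acadl, an acyl-CoA dehydrogenase that SIRT3 deacetylates, was lower with LNA29 in L-Sirt1 KO-labelled mice (-0.43, adjusted p = 0.141), and 0 were called in WT/Floxed mice (largest Cps1, -0.17). By genotype label none of these lists held a called gene. These single calls were fragile: of 19 alternatives Gnmt kept its call in 10, and of 13 Mat2a kept it in 6 and Acadl in 5, whereas Parp16 kept it in all 13.

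Single markers of other liver cells were called with LNA29. Lyve1, a marker of sinusoidal endothelium, was the 1 of 5 endothelial markers called in either genotype, with a log2 difference of -0.51 for WT/Floxed mice and -1.17 under the L-Sirt1 KO label. In both, 2 of the 5 lay above 0 and 3 below. Summed endothelial markers were between 6890 and 10930 with LNA29 and between 8207 and 10790 with saline in WT/Floxed mice. Of the 6 macrophage markers 0 were called in WT/Floxed mice, where their sum ranged from 5264 to 28190 with LNA29 and from 9486 to 16160 with saline. Vsig4 (-0.54) and Clec4f (-0.29) were called in L-Sirt1 KO-labelled mice, with a sum of 9123 to 11720 against 11370 to 13520. Of 6 hepatocyte markers Apoa1 rose in WT/Floxed mice (0.51), and 0 of 6 stellate markers were called in either genotype. No marker of these lists was at 0 in all libraries of a group, and their part in the values of the 10 genes was not tested.

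**Figure D4:**
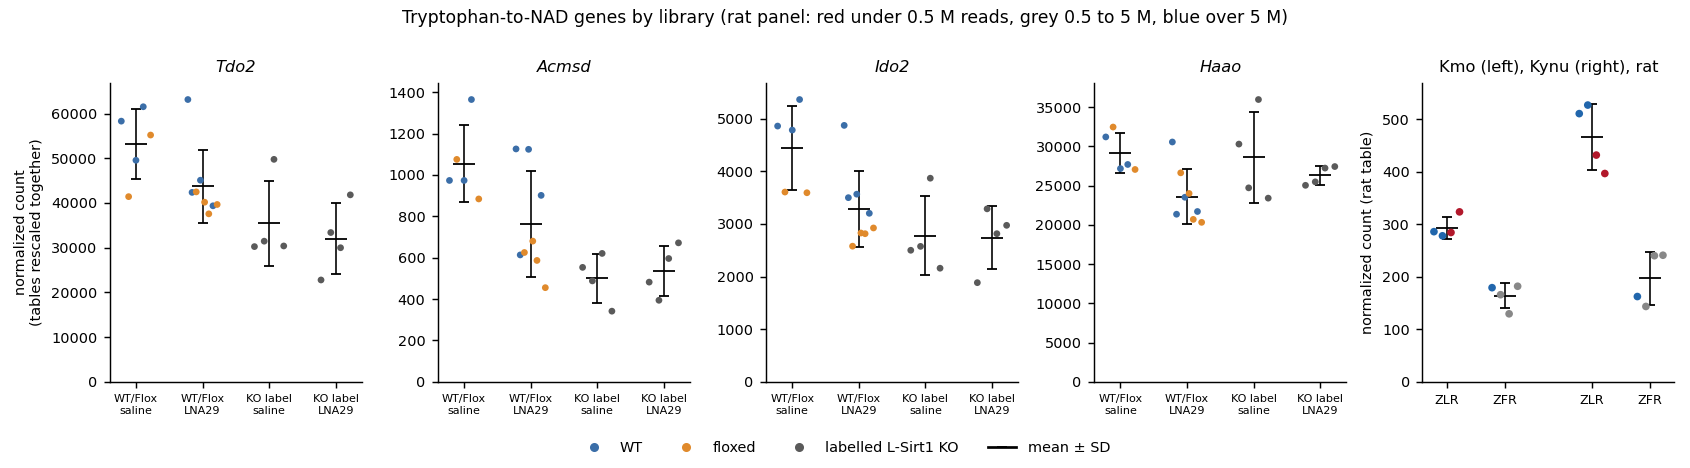
Normalized counts (vertical axes from 0) of 4 tryptophan-to-NAD genes in mice and, in the last panel, of Kmo and Kynu in ZLR and ZFR, with 1 point per animal and bars for the mean ± SD. Mouse points are coloured by background and rat points by estimated reads. Among saline-treated mice Acmsd does not overlap between genotype labels, and Kmo and Kynu do not overlap between ZLR and ZFR.

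In rats, obese ZFR were compared with lean ZLR at 5.5 months. At an adjusted p under 0.05, 4.25% of 8633 genes were called. Of the 9 genes with an entry, 7 were tested and 0 were called (limma adjusted p from 0.24 to 0.956, 1 with an unadjusted p under 0.05). The median log2 difference of the 7 was 0.23, against 0.07 over all genes tested. Sirt4 and Sirt6 were below the minimum mean of 10 normalized counts and were not tested. Sirt6 had 11.7, 11.1, 10.5 and 0 in ZLR and 11.4, 11.8, 12.5 and 9.33 in ZFR. Sirt4 had 8.67, 6.05, 10.9 and 0 in ZLR and 6.45, 6.1, 0 and 4.84 in ZFR. Both zeros of the lean rats are in ZLR replicate 4, where 3 reads would be worth 31.3 normalized counts, so neither gene was detectable there at the level of the other rats. The Sirt4 zero in ZFR replicate 3 allows up to 6.27.

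Sirt2 came closest to the call. It had 110.2, 86.4, 104.5 and 80.3 normalized counts in ZLR and 77.3, 75.1, 63 and 72.7 in ZFR, so every fatty rat lay below every lean rat. The means were 95.34 ± 14.3 (SD, n = 4) and 72.01 ± 6.28 (SD, n = 4), a log2 difference of -0.39 (-0.74 to -0.04) with an adjusted p of 0.24. The exact permutation p was 0.0286, the smallest that 4 against 4 rats allow (two-sided, unadjusted). It was similar within both flow cells (-0.43 and -0.35). The fewest estimated reads behind one of these counts were 7.69, in ZLR replicate 4. There 1 read was worth 10.4 normalized counts, more than the gap between its 80.3 and the 77.3 of ZFR replicate 1. The lack of overlap therefore rests on less than 1 read. How many of all genes tested lack overlap was not counted. Without the libraries under 0.5 M reads, which drops ZLR replicates 3 and 4, the difference was -0.44 (limma adjusted p = 0.167). This alternative was chosen after seeing the data. In the 8 fits that each left out 1 rat it lay between -0.47 and -0.32, with limma adjusted p-values from 0.13 to 0.464. Sirt2 was not called in any of the 16 alternatives.

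Nampt had 107, 354.2, 93.5 and 143.7 normalized counts in ZLR and 236.9, 248.2, 258.7 and 176.4 in ZFR. Lean replicate 2 lay above every fatty rat and the other 3 lean rats lay below all of them. The log2 difference was 0.6 (-0.22 to 1.41, adjusted p = 0.454), and without ZLR replicate 2 it was 1.01 and was called (adjusted p = 0.0303). That library has 46.1 M estimated reads and its 354.2 stands on 8201.5 estimated reads, whereas ZLR replicates 3 and 4 have under 0.2 M. The other deep lean library, replicate 1 with 56.4 M, was at 107. Without the libraries under 0.5 M reads, again, the difference was 0.22 (adjusted p = 0.83).

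The other enzymes and the mitochondrial sirtuins had wide intervals. Nmnat1 had 26.7, 26.6, 0 and 31.3 in ZLR and 33.8, 25.9, 41.8 and 40.4 in ZFR. The 0 belongs to ZLR replicate 3, in which 3 reads would be worth 31.6 normalized counts, so a level like that of the other lean rats was not detectable there and the fitted log2 difference of 1.52 (-0.71 to 3.75) rests on it. Nnmt, unlike in mice, had a small spread, with means of 120.3 ± 28.4 (SD, n = 4) in ZLR and 121.3 ± 22.4 (SD, n = 4) in ZFR (0.03, -0.46 to 0.51). Sirt5 was at 46.6, 40.7, 31.6 and 52.2 in ZLR and 62.3, 51.8, 56.4 and 52.9 in ZFR, with 1 lean rat inside the fatty range (0.4, -0.04 to 0.84, adjusted p = 0.352), and the values of ZLR replicates 3 and 4 stand on 3 and 5 reads. Sirt3 (-0.24, -0.81 to 0.32) and Sirt7 (0.23, -0.4 to 0.86) overlapped widely.

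**Figure D5:**
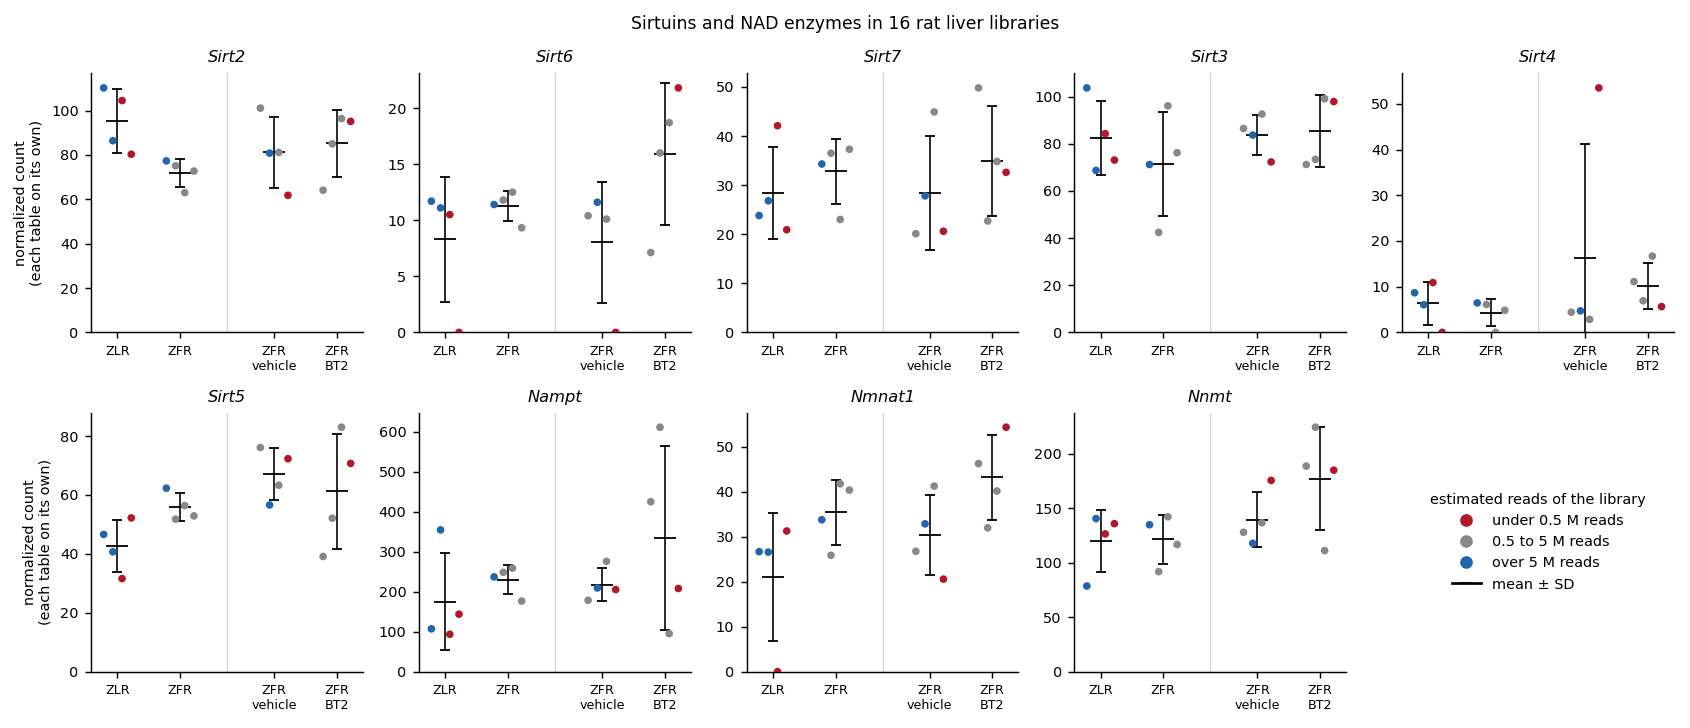
Normalized counts of 9 genes in 16 rat livers (vertical axes from 0), with ZLR and ZFR to the left of the grey line and vehicle- and BT2-treated ZFR to the right, since these are separate tables. Each point is 1 rat, coloured by the estimated reads of its library, and bars give the mean ± SD, cut at 0 for Sirt4 with vehicle. Sirt2 does not overlap between ZLR and ZFR, by a gap smaller than 1 read is worth in ZLR replicate 4. The values at 0 and the high Sirt4 value of 53.5 come mostly from libraries under 0.5 M reads.

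Within NAD synthesis in rats, 2 of 12 tested genes were called between ZFR and ZLR, both lower in fatty rats and both steps of the kynurenine pathway. Kmo, kynurenine monooxygenase, had 286, 278.1, 284.4 and 323.7 normalized counts in ZLR and 179.3, 165.9, 129.5 and 182 in ZFR (log2 difference -0.84, SE 0.134, limma adjusted p = 0.00692). Kynu, kynureninase, the next enzyme, had 510.9, 527.2, 431.9 and 396.8 against 162.4, 143.5, 240.2 and 241.1 (-1.27, SE 0.19, adjusted p = 0.00527). Neither gene overlapped between the groups, and both calls held in all 8 fits that left out 1 rat. Without the libraries under 5 M reads, which leaves 3 rats and 1 residual degree of freedom, the values were -0.65 (adjusted p = 0.266) and -1.67 (adjusted p = 0.0636). The median over the list was 0.37, above the 0.07 of all genes, so the list did not move as one.

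The clock genes also moved between ZFR and ZLR, with 5 of 10 called, beside 4.25% of all genes tested. Dbp was at 4.55, 28, 7.37 and 0 in ZLR and 109, 265.4, 271.8 and 181.2 in ZFR (log2 difference 5.01), and Arntl at 60.8, 43.4, 63.2 and 83.5 against 24.5, 8.24, 4.18 and 12.4 (-2.46). In ZLR replicates 3 and 4, 3 reads would be worth 31.6 and 31.3 normalized counts. Their Dbp values of 7.37 and 0 lie below that, and the size of the Dbp difference rests in part on them. Without the libraries under 5 M reads, which leaves 3 rats, the log2 differences were 3.11 for Dbp and -1.04 for Arntl. Of these 3 rats only ZFR replicate 1 is fatty, so this fit cannot decide whether a gene keeps its call. Per3 (4.3, adjusted p = 0.0186) and Npas2 (-3.65, adjusted p = 0.0165) were called as well. Per3 lost its call in 4 of the 8 fits that left out 1 rat (adjusted p up to 0.0974), and Arntl and Npas2 each lost it in 1. Single markers of other liver cells were called as well, while their lists went both ways. Acta2 (2.24) was the 1 call among 5 tested stellate markers (3 above 0 and 2 below), with sums of 131.7 to 200.5 in ZLR and 175.1 to 278.2 in ZFR, and Stab2 (1.16) the 1 call among 4 endothelial ones (2 above 0 and 2 below), with 293.8 to 335.8 against 265.3 to 397.1. No marker of these lists with an entry was at 0 in all libraries. Among 6 hepatocyte markers Ttr was called (-0.43), and among 6 macrophage markers 0 were. Their part in the Kmo, Kynu and Sirt2 values was not tested.

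Of the other rat lists, Aox3, an aldehyde oxidase of the kind that oxidizes N-methylnicotinamide, was the 1 gene called among the 8 methyl donor and N-methylnicotinamide genes. It fell from 87.2, 189.4, 63.5 and 136.5 in ZLR to 28.2, 7.09, 7.9 and 6.53 in ZFR (log2 difference -3.3, adjusted p = 0.00491). Without the libraries under 5 M reads, where ZFR replicate 1 is the only fatty rat, the Aox3 difference was -2.15. That fit cannot decide whether the call is kept. Cps1, the urea cycle enzyme that SIRT5 deacylates, was called among 6 mitochondrial substrates (-0.58, adjusted p = 0.0483), a call kept in 6 of 16 alternatives. None of the NADP and transport genes (largest Nadk, 0.38), the NAD consumers (Tnks, 0.87) or the SIRT1 regulators (Foxo3, -1.67, adjusted p = 0.121) was called.

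BT2 was compared with vehicle in ZFR of 3 months, which are other rats than those above. At an adjusted p under 0.05, 0 of 8405 genes (0%) were called by limma, while 332 had an unadjusted p under 0.05. Accordingly 0 of the 9 genes described here were called (adjusted p from 0.898 to 0.994). Their median log2 difference was 0.31, against 0.01 over all genes tested. The intervals give the precision of each estimate and not a limit of detection. Sirt2 had 0.07 (-0.39 to 0.53) and Sirt3 0.02 (-0.39 to 0.42), whereas Sirt4 reached from -1.72 to 2.11.

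Nampt had 178.4, 209.1, 275.7 and 205.2 normalized counts with vehicle and 424.6, 610.8, 95.1 and 207.8 with BT2. Of the BT2-treated rats 2 lay above and 1 below every vehicle-treated rat, so the spread rather than the level set this group apart (SD 229 with BT2 and 41.4 with vehicle, n = 4 each). The log2 difference was 0.32 (-0.71 to 1.35), at 1.39 within the first flow cell and -0.75 within the second.

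Nmnat1 was at 26.8, 32.9, 41.3 and 20.6 with vehicle and 46.3, 32, 40.2 and 54.4 with BT2 (0.51, -0.1 to 1.12), and 2 of the 4 BT2 values lay above all vehicle values. Nnmt was at 127.9, 117.8, 136.6 and 175.5 with vehicle and 188.6, 224.3, 111.1 and 184.9 with BT2, with 3 of 4 above the vehicle range (0.31, -0.18 to 0.81). Sirt6 had 10.4, 11.6, 10.1 and 0 against 7.12, 16, 18.7 and 21.8. The 0 is in vehicle replicate 4, where 3 reads would be worth 31 normalized counts, and the wide log2 difference of 1.32 (-0.59 to 3.23) rests on it. Sirt5 (-0.18, -0.72 to 0.37) and Sirt7 (0.32, -0.42 to 1.05) showed no separation of the groups.

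In the lists, 0 genes were called with BT2. Kynu had the largest difference in NAD synthesis, 0.65 (0.08 to 1.22, adjusted p = 0.898): it was at 371, 364.5, 199.9 and 154.9 with vehicle and at 412.8, 387.1, 395 and 407.9 with BT2, without overlap. Largest in their own lists were -0.4 (Slc25a51, the mitochondrial NAD carrier), -0.72 (Parp4), 1.04 (Mat2a), 1.67 (Foxo3) and -2.21 (Dbp), all with an adjusted p of at least 0.898.

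Genes whose levels ran most like those of 3 members over the 21 mouse libraries were looked up among 12895 genes with a mean of at least 50. For Nampt they included Srebf1 (Pearson r = 0.886) and Dock6 (0.815). For Nnmt they were Zap70 (0.857), Oat (0.852) and Agmat (0.84), and for Sirt1, whose levels hardly varied, Yod1 (0.742), Sall1 (0.733) and Cnst (0.733). The libraries share treatments, flow cells and genotype labels, and the highest of so many correlations is high by selection, so these values are descriptions.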

How the data were processed

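Livers of 21 mice and 16 rats were profiled by polyA RNA-seq with single-end reads of 100 bp. Per the paper's methods, the authors aligned reads to mm10 or rn6 with STAR v2.5.3a, estimated gene counts with Salmon v0.6.0 and used DESeq2 (version not given in the sources used here). The 4 deposited tables were taken as normalized apart, which the sources do not state. The deposited values were treated as a signal, estimated counts divided by scaling factors. Whole reads could not be recovered, since 68.4% to 90.1% of low values (up to 20 reads, tolerance 0.001) were whole, so no count model was run. Depth was estimated from the value of 1 read. Entries without a name (381 in mice, 201 in rats) and repeated names (130 and 4523, the latter 2.12% to 2.17% of the rat sums) were left out.

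Tests were made with limma 3.58.1 in R 4.3.3 (lmFit, eBayes with trend) on log2(normalized count + 1), for genes with a mean of at least 10, with Benjamini-Hochberg adjustment over all of them. Differences on this scale understate those of low genes, and overstate them where a shallow rat library is at 0. Members were also compared by two-sided exact permutation tests. Genotype comparisons used both mouse tables rescaled by the median of ratios, with treatment as a covariate. Calls needed an adjusted p under 0.05, or under 0.2 with p under 0.05, a mean above 50 and a fold above 1.2 for LNA29, or under 0.2 for the interaction. The scripts were tested on simulated data. Positions, exon lengths and 3′ UTRs came from GRCm38 with GENCODE M21, read with Python 3.11.15 and pandas 2.3.3.

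The members, gene lists and marker lists (hepatocyte, stellate, macrophage, endothelial, cholangiocyte, adipocyte, lymphocyte and pancreatic acinar cells) were chosen with earlier results of these data known. Named are the 10 members, of each list the called genes (at most the 4 largest) or else the gene with the largest difference, and the 3 genes most like Sirt1, Nampt and Nnmt. Some genes that this rule names are not reported here. Adipocyte, lymphocyte and acinar markers gave 0 calls where tested (1 to 3 of 4 adipocyte and 1 to 4 of 4 acinar markers, lymphocyte and acinar ones in mice only). Also tried were no minimum mean, a pseudocount of 10, TMM scaling (trims 0.3 and 0.05), flow cell, background or replicate number as a term, tables as deposited, precision weights and omission of libraries.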

Additional observations from a re-analysis of the deposited data

Results flagged for a closer look

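Within groups of 4 to 10 animals, the highest or lowest value of a gene stood apart from the rest by Dixon's criterion at 95% in 6 of 76 pairs of a gene and a group, where chance gives about 1 in 20, or 3.8. Of these, 4 belong to rat libraries under 0.2 M estimated reads. Sirt6 was at 0 in ZLR replicate 4 (next value 10.5) and at 0 in ZFR vehicle replicate 4 (next 10.1), and Nmnat1 was at 0 in ZLR replicate 3 (next 26.6). Sirt4 was at 53.5 in ZFR vehicle replicate 4 (next 4.71), a value that stands on 5.18 reads.

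The other 2 are in deep mouse libraries. Sirt5 was at 684.6 in L-Sirt1 KO LNA29 replicate 2 (next 560.1), and without this mouse its log2 difference with LNA29 in that genotype was -0.02. Nmnat1 was at 712 in WT/Floxed saline replicate 2, below the next value of 753.6.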

How the results depend on the processing

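Of the member and list values under settings other than leaving out an animal, 516 kept direction and side of the call, 35 lost the call and 8 changed sign. Of those that left out 1 animal, 1036 kept both, 66 lost the call, 3 gained it and 40 changed sign. Members changed sign as follows. With LNA29 in WT/Floxed mice Nampt was 0.02 under the replicate block. With LNA29 in L-Sirt1 KO-labelled mice Nnmt was 0.15 with flow cell as a term. Against floxed mice Nmnat1 was 0.02 under the block and as deposited. With BT2, Sirt4 was -0.06 with a pseudocount of 10, where the full fit gave 0.2 (-1.72 to 2.11). Sirt3 with BT2 was -0.03 with precision weights. Without libraries under 0.5 M reads (an alternative added after seeing the data), Sirt2 with BT2 was -0.11 and Sirt3 -0.12. The causes were not tested.

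With LNA29 in WT/Floxed mice, no minimum mean gave 396 called genes and 0 members (Sirt5 adjusted p = 0.23), with 29114 genes tested in place of 15811. The replicate block gave 56 and 0 (Sirt5 0.756). In L-Sirt1 KO-labelled mice the count was 160 without the minimum, 103 with flow cell and 145 under the replicate block. Against floxed mice the replicate block gave 0. The interaction gave 19 with flow cell and 0 under the block. Between ZFR and ZLR the count was 241 without the minimum, 221 under the replicate block, 621 with precision weights and 73 without libraries under 5 M reads. With BT2 it was 1 with a pseudocount of 10 and 1 without libraries under 0.5 M reads, and the fit without libraries under 5 M reads could not be made since 1 rat remained. Replicate numbers were not shown to pair animals: in no comparison did every pair of same-numbered libraries correlate above 0.1, nor every library best with its own number.

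Leaving out 1 animal gave 381 to 1006 calls with LNA29 in WT/Floxed mice (lowest without LNA29 replicate 8; also over 1.5 times fewer without LNA29 replicates 6 and 7 and saline replicate 1) and 0 to 2 members called. In L-Sirt1 KO-labelled mice it gave 77 to 426 (77 without LNA29 replicate 4, 85 and 87 without LNA29 replicates 2 and 3, 165 and 133 without saline replicates 2 and 4), against floxed mice 75 to 125 (75 and 78 without floxed saline replicates 2 and 5), for the interaction 0 to 230, between ZFR and ZLR 225 to 379 (225 to 235 without any of the 4 ZFR) with 0 to 1 members called, and with BT2 0 to 2. Member ranges with a sign opposite to the full fit were, with LNA29 in WT/Floxed mice, Sirt1 -0.02 to 0.11, Sirt3 -0.04 to 0.12 and Sirt4 -0.08 to 0.01; in L-Sirt1 KO-labelled mice, Nnmt -0.5 to 0.18, Sirt5 -0.04 to 0.17 and Sirt4 -0.17 to 0.02; by label against WT/Floxed, Sirt3 -0.07 to 0.02 and Sirt5 -0.02 to 0.1; against floxed mice, Nmnat1 -0.04 to 0.02, Sirt5 -0.01 to 0.13, Sirt6 -0.1 to 0.03 and Nampt -0.04 to 0.1; for the interaction, Sirt2 -0.08 to 0.02 and Sirt4 -0.14 to 0.05; between ZFR and ZLR, Nnmt -0.16 to 0.15; and with BT2, Sirt4 -0.21 to 0.41, Sirt5 -0.34 to 0.02, Nampt -0.08 to 0.81, Sirt2 -0.05 to 0.2 and Sirt3 -0.06 to 0.1.

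Depth limits the rat results: 1 read was worth up to 10.5 normalized counts, so in the shallowest libraries the sirtuins, Nampt and Nmnat1 rest on few reads (Sirt5 on as few as 3, Sirt3 on 7).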
